A study of Rattus norvegicus with 18 samples.

Results

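The serpins are a family of genes named for serine protease inhibition. Of the 14499 rat genes that the array's annotation pairs with a single symbol, 36 have a symbol that starts with Serpin, and these 36 are described here, each measured by 1 array feature. The genes fall into 9 clades by the letter after the family name: 13 in clade A, 14 in clade B, 2 each in clades F and I, and 1 each in clades C, D, E, G and H.

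The cells were primary cultures from the rat inner medullary collecting duct, the last stretch of the renal tubule, which in the animal is bathed in very concentrated fluid. Total RNA was measured on 18 arrays in 6 groups of 3, and the strain, sex and age of the rats are not given in the sources used here. A first pair of groups was kept at 300 or 600 mosmol/kg with no further step, and these are called the 300 culture and the 600 culture. For the 600 challenge, cells of the 300 culture spent 24 h at 600 mosmol/kg, and for the 900 challenge, cells of the 600 culture spent 24 h at 900 mosmol/kg. Each challenge was also made in the presence of 5 µM cyclosporin A, a drug that blocks calcineurin. No group received cyclosporin A without a change of osmolality, none was mock-stepped at its own osmolality, and the vehicle of the drug is not given. Each challenge was compared with its starting culture, each drug group with the challenge without the drug, the 600 culture with the 300 culture, and the 600 challenge with the 600 culture. Several of these 8 comparisons share arrays, above all those of the 300 and 600 cultures, so they are not independent of each other.

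Most inhibitory serpins work as single-use traps. A protease cuts the exposed reactive-centre loop, the loop inserts into the body of the serpin, and the protease is left covalently bound and distorted until the complex is cleared. Clade A members are mostly secreted plasma proteins, clade B members mostly lack a signal peptide and act inside cells, and a few serpins, among them the collagen chaperone Serpinh1 and the secreted factor Serpinf1, inhibit no protease. In the kidney, serpins are known chiefly as partners of the plasminogen activators, of coagulation proteases and of proteases released by immune cells.

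The deposited values are on a log scale whose base is not given, so differences are in log units. With base 2 a difference of 1 unit is 2-fold, with natural logarithms 2.72-fold, and folds are given under both readings. Array medians lay between 3.564 and 3.649 and the lower quartiles between 2.476 and 2.696. Of the 36 genes, 18 had a group mean above the lower quartile in all 6 groups, 6 in some groups and 12 in none. The 12 included 7 of 13 clade A and 2 of 14 clade B genes, a count of features near background and not a ranking of the clades by expression. Differences were tested with limma over all 28328 features, and a gene is called higher or lower at a Benjamini-Hochberg adjusted p under 0.05. Nothing in the labels shows that the arrays of a group are from different rats or dishes. The p-values therefore rest on array-to-array spread, which may be technical. The array is thus the unit of n, and n = 3 in every group.

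The labelled cell type was checked against 12 principal cell markers. Their summed level was 34.8 to 36.5 on the arrays of the 300 culture, 36.6 to 37.2 in the 600 challenge and 33.1 to 34.1 with the drug, against 60.1 to 63.9 in the 600 culture, 66.6 to 66.8 in the 900 challenge and 64.0 to 65.1 with the drug. Aqp2, the vasopressin-regulated water channel that defines principal cells, had a mean of 1.61 in the 300 culture and 6.5 in the 600 culture. This defining marker was below the lower quartile in the 300 culture and in both 600 challenge groups. Of the 12 markers, 6 were below it in the 300 culture, 5 in the 600 challenge and 6 with the drug. The 600 culture had 2 below it, the 900 challenge 2 and the 900 challenge with the drug 3. Scnn1b and Scnn1g were below it in every group. Of the 12 fibroblast and smooth muscle markers, 1 or 2 were below the lower quartile in each group, Pdgfra in all of them. Of the 13 leukocyte markers, none was below it in the 300 and 600 cultures, 2 were in the 600 challenge, 1 with the drug, and 4 in each 900 challenge group. The other fibroblast, smooth muscle and leukocyte markers were measured above it. No marker had a group mean of 0. In such bulk samples, fewer cells of a type and less RNA per cell cannot be told apart.

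Promoter sequence is printed for 4 of the genes with large differences, Serpina3n, Serpinb1a, Serpinb2 and Serpine2, whose windows hold motif matches, and for Serpina3l, the neighbour of Serpina3n in the RefSeq gene order. These 5 were chosen after their values and matches were seen. The windows of Serpina9, Serpinf1, Serpinb10, Serpinb9 and Serpinc1 held no match and are not printed. That of Serpinb5 held AP-1, NF-Y box and GC box matches, motifs described below, and is not printed either. No window was on hand for Serpina10. The printed sequences are from RefSeq promoter windows of GRCr8 and run 5′ to 3′ on the strand of the gene. For Serpina3n the whole window of 250 bases before the annotated start is shown (chr6:129088142-129088391, plus strand), as it is for Serpinb1a (chr17:31799196-31799445, plus strand). Stretches of 30 bases are shown for Serpina3l (chr6:129063067-129063096, plus strand), Serpinb2 (chr13:24055824-24055853, plus strand) and Serpine2 (chr9:88637275-88637304, minus strand). The Serpinb2 stretch lies within the annotated span of the gene and the others lie outside the span of theirs. Capitals mark matches to 1 of 6 motifs.
Serpina3n: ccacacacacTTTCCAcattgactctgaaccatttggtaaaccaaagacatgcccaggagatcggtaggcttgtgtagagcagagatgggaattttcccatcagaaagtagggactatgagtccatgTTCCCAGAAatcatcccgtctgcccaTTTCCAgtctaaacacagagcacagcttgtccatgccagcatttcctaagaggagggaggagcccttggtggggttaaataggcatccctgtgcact
Serpina3l: ctaatccatgTTCTGAGAAatcatccagtc
Serpinb2: gtttaaaaTGATTCAgaTTTCCAgacagtg
Serpinb1a: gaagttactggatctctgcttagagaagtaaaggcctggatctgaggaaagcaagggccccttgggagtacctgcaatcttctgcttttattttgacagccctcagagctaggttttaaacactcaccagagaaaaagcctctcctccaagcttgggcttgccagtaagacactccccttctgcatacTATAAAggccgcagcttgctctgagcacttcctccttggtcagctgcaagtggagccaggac
Serpine2: aggcgGGGCGGGGCGGgccgggGGGCGGgg

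The 6 motifs, searched on both strands, were the core promoter box with the letters TATAAA, the AP-1 site with TGANTCA, and the core of the tonicity-responsive element bound by Nfat5 with TGGAAA. The others were the STAT site with TTCNNNGAA, the NF-Y box with CCAAT and the GC box with GGGCGG. Capital TTTCCA is TGGAAA read on the other strand. Serpina3n holds the tonicity core beginning 240 and 97 bases before the start and a STAT match beginning 123 bases before it, and Serpina3l has a STAT match beginning 129 bases before its start. Serpinb2 holds an AP-1 match beginning 189 bases before the start and tonicity cores beginning 237 and 180 bases before it, of which the latter is printed. Its window also holds an NF-Y box match beginning 250 bases before the start, which is not printed. In Serpinb1a the match is a core promoter box beginning 62 bases before the start, and the Serpine2 stretch holds GC boxes beginning 97, 92 and 80 bases before the start, the first pair of which overlap by 1 base. Windows were on hand for 29 of the 36 genes. The STAT site was in 2 of the 29 (6.90%) and in 7.67% of all 33469 promoters, the AP-1 site in 4 (13.8%) against 6.34%, and the tonicity core in 8 (27.6%) against 19.7%. Besides Serpina3n and Serpinb2, these 8 were Serpinh1, with 2 matches, and Serpina16, Serpina7, Serpinb11, Serpinb13 and Serpinb3. Serpinh1, whose window is not printed, was lower at each step towards higher osmolality, and the rest were called in no comparison. The core promoter box was in 5 (17.2%) against 12.9%, the NF-Y box in 7 (24.1%) against 34.0% and the GC box in 6 (20.7%) against 30.5%. A match describes the letters of the window and is not a bound site.

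Of the 36 genes, 15 were called in at least 1 of the 8 comparisons, and 11 of these with a difference of at least 0.5 log units. The share of all features called in at least 1 of the 8 was not counted, so these counts have no background beside them. In the shares below, all features include 12711 without a gene symbol, while the 36 genes are all named, so the sets are unlike. No share over named features alone was taken. After the 600 challenge 4 rose and 8 fell (33.3% called, against 14.4% of all features, of which 6.36% rose and 8.07% fell). With cyclosporin A 3 rose and 8 fell (30.6% against 14.1%, with 6.21% up and 7.85% down). After the 900 challenge 1 rose and 6 fell (19.4% against 17.4%, with 6.43% up and 11% down), and with the drug 1 rose and 8 fell (25% against 17.8%, with 7.27% up and 10.5% down). With the arrays centred on their medians the last count was 1 up and 7 down, and the share of higher calls among all called features went from 40.9% to 53.5%. The 600 culture had 6 higher and 5 lower than the 300 culture (30.6% against 17.2%, with 8.33% higher and 8.84% lower). The 600 challenge had 3 higher and 6 lower than the 600 culture (25% against 16.4%, with 7.69% higher and 8.74% lower). The called share at the 900 challenge was thus near that of all features. Counted over the 8 comparisons and the difference between the steps, 66 differences of single genes were called, of which 45 were also called when only the arrays of the groups compared were fitted, and 35 of 61 with a 2-sample test of each feature alone. The median difference over the 36 genes was -0.06 after the 600 challenge and -0.05 after the 900 challenge, beside 0.02 and -0.01 over all features.

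**Figure D1:**
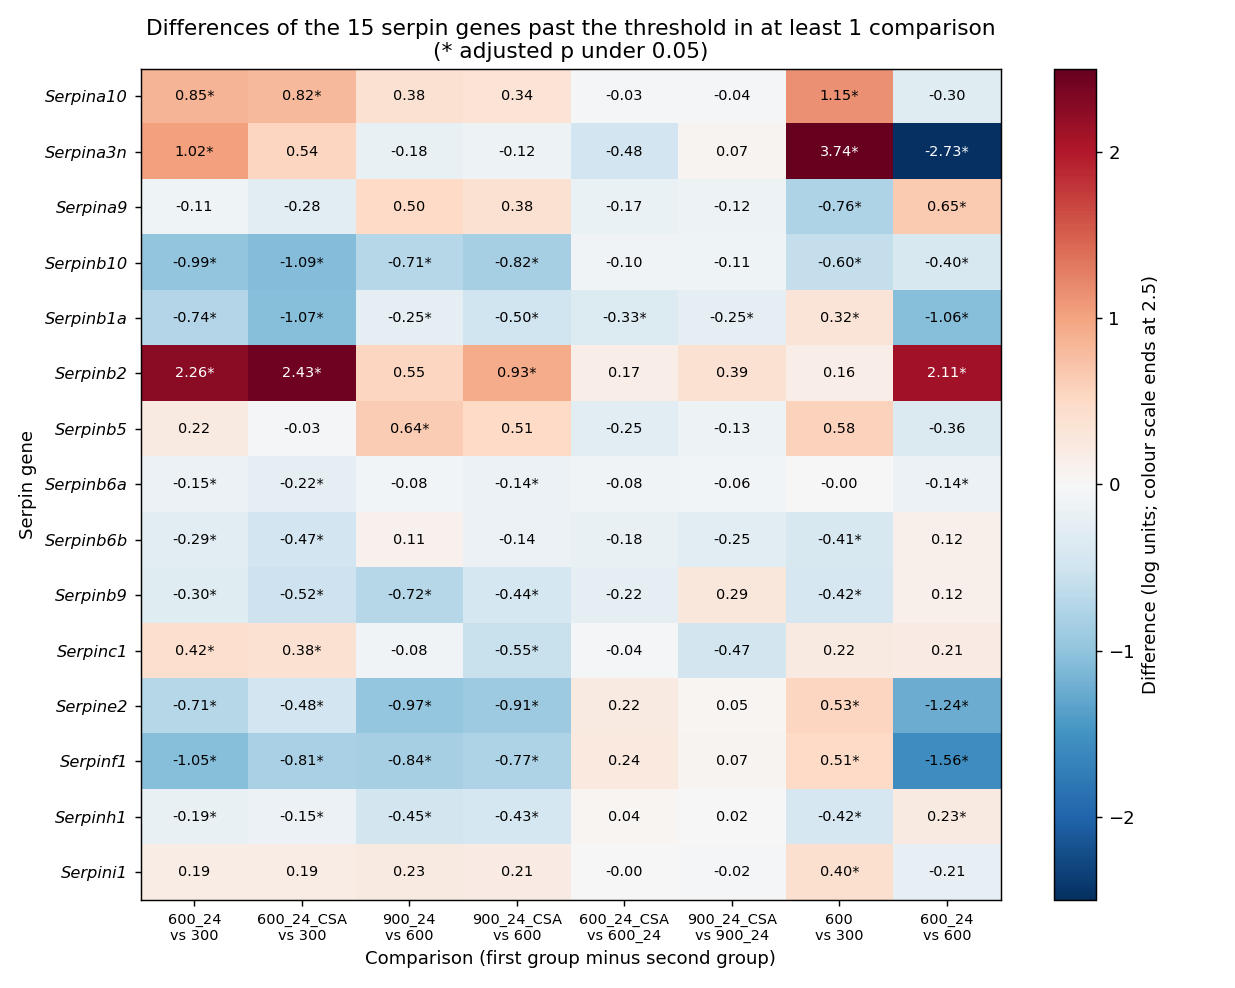
Differences in log units for the serpin genes called in at least 1 comparison, with genes in rows by clade and comparisons in columns, named as first group minus second (300 and 600 are the cultures, 600_24 and 900_24 the challenges, CSA cyclosporin A). An asterisk marks an adjusted p under 0.05. Serpinb2 is high after the 600 challenge without and with the drug (2.26 and 2.43), Serpina3n in the 600 culture against the 300 culture (3.74), and Serpinf1 and Serpine2 are lower after both challenges.

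In clade A, 3 of 13 genes were called in any comparison, a count for which no share of all features was taken. Serpina3n encodes a secreted acute-phase inhibitor of leukocyte serine proteases. It read 2.226, 2.656 and 2.551 in the 300 culture, 3.13, 3.387 and 3.966 after the 600 challenge and 3.101, 2.655 and 3.295 with the drug. It read 6.248, 6.159 and 6.252 in the 600 culture, 6.04, 6.093 and 5.972 after the 900 challenge and 6.022, 6.109 and 6.174 with the drug. The 3 groups derived from the 600 culture were far above the 3 groups kept at 300 or stepped to 600, with no overlap. The 600 culture exceeded the 300 culture by 3.74 ± 0.19 (SE; adjusted p = 2.04e-09, limma). The group mean in the 300 culture, 2.48, was below the lower quartile of its arrays (2.60), so no fold is given. The same target osmolality reached by a 24 h step gave a rise of 1.02 ± 0.19 (adjusted p = 0.0016), so that the 600 challenge remained 2.73 below the 600 culture (adjusted p = 7.63e-08). With cyclosporin A the rise was 0.54 and was not called, and the difference between the challenge groups, -0.48, was not called either (adjusted p = 0.463). Of 12 principal cell markers 9 were higher in the 600 than in the 300 culture and 9 lower in the 600 challenge than in the 600 culture, and of 7 loop of Henle markers 6 and 6 were. Of all features, 8.33% were higher in the former comparison and 8.74% lower in the latter. The loop of Henle sum was 21.1 to 22.5 in the 300 culture, 24.2 to 25.2 in the 600 challenge, 23.1 to 25.1 with the drug, 30.9 to 31.7 in the 600 culture, 35.9 to 36.1 in the 900 challenge and 35.7 to 36.1 with the drug. The part of these markers in the Serpina3n result was not tested. Raising the 600 culture to 900 gave a difference of -0.18, which was not called.

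Serpina10 encodes a protein Z-dependent inhibitor of coagulation factor X. Its values were 2.492, 2.722 and 2.012 in the 300 culture, 3.248, 3.315 and 3.22 after the 600 challenge, 3.687, 3.719 and 3.267 in the 600 culture, and at the 900 challenge they were 4.285, 3.763 and 3.765. With the drug they were 3.037, 3.265 and 3.381 at 600 and 3.883, 3.828 and 3.968 at 900. All arrays of the other groups were above those of the 300 culture. The step to 600 raised it by 0.85 ± 0.18 (adjusted p = 0.00428), or 0.82 with the drug (adjusted p = 0.00581), and the 600 culture exceeded the 300 culture by 1.15 (adjusted p = 0.000272). Its mean in the 300 culture, 2.41, was also below the lower quartile. Serpina9, known from germinal-centre B cells, had means between 1.81 and 2.57, below the lower quartile in every group. It read 2.536, 2.53 and 2.658 in the 300 culture and 1.508, 1.883 and 2.042 in the 600 culture, without overlap. It was lower by 0.76 in the 600 culture than in the 300 culture (adjusted p = 0.0162), a call lost on leaving out 300 culture replicate 3 (adjusted p = 0.0576) or 600 culture replicate 1 (adjusted p = 0.0829). The 600 challenge, at 2.486, 2.142 and 2.769, was above the 600 culture by 0.65 (adjusted p = 0.0395), also lost on leaving out 600 culture replicate 1 or 2 or 600 challenge replicate 1 or 3 (adjusted p from 0.0706 to 0.168).

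The other 10 clade A genes were called in no comparison. They include Serpina1, the inhibitor of neutrophil elastase made mainly by the liver, with group means of 1.23 to 1.72. Serpina5, the protein C inhibitor, lay between 2.10 and 2.48. The hormone carriers Serpina6 and Serpina7, which bind glucocorticoids and thyroxine, had means of 2.20 to 2.60 and 1.88 to 2.26. Serpina3c was the 1 clade A gene above the lower quartile in all 6 groups, at 3.61 to 3.92. Serpina3l, next to Serpina3n in the RefSeq order, ran from 0.45 to 2.90 over the arrays. It was called in none of the comparisons with all arrays, and was called in the 600 against the 300 culture when 300 culture replicate 2 was left out. The Serpina3 genes are close relatives, and whether a feature also reads a relative's RNA was not tested.

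Clade B held the largest acute rise. Serpinb2, a largely intracellular inhibitor of urokinase, read 3.088, 3.622 and 2.371 in the 300 culture, 5.279, 5.318 and 5.276 after the 600 challenge and 5.394, 5.532 and 5.452 with cyclosporin A. It read 2.62, 3.289 and 3.642 in the 600 culture, 3.902, 3.393 and 3.895 after the 900 challenge and 4.019, 4.133 and 4.198 with the drug. Both 600 challenge groups were above every array of the other groups. The rise after the 600 challenge was 2.26 ± 0.27 (adjusted p = 3.93e-05), 4.80-fold in base 2 or 9.62-fold in natural logs, and with the drug it was 2.43 (adjusted p = 2.07e-05). Replicate 3 of the 300 culture, at 2.371, was below the lower quartile of its array (2.604). The 600 challenge also exceeded the 600 culture by 2.11 (adjusted p = 5.2e-05), while the 600 and 300 cultures had means of 3.18 and 3.03. At the 900 challenge the difference was 0.55 and was not called. With the drug it was 0.93 ± 0.27 (adjusted p = 0.0269), and this call was lost on leaving out 600 culture replicate 1 or 2 or any array of the drug group (adjusted p from 0.0522 to 0.128). The difference was smaller at the 900 than at the 600 challenge by 1.72 ± 0.38 (adjusted p = 0.0134).

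Serpinb10 follows Serpinb2 in the RefSeq gene order and went the other way at the 600 step. It encodes an inhibitor known from cells of the bone marrow. Its values were 4.713, 4.689 and 4.93 in the 300 culture, 3.642, 3.938 and 3.777 after the 600 challenge, 4.327, 4.25 and 3.967 in the 600 culture, and at the 900 challenge they were 3.607, 3.436 and 3.36. With the drug they were 3.764, 3.625 and 3.68 at 600 and 3.126, 3.559 and 3.391 at 900. No challenge group, with or without the drug, overlapped its starting culture. It fell by 0.99 ± 0.12 (SE; adjusted p = 5e-05) after the 600 challenge and by 0.71 (adjusted p = 0.000744) after the 900 challenge, and with the drug it fell by 1.09 (adjusted p = 2.13e-05) and 0.82 (adjusted p = 0.000219). The 600 culture was lower than the 300 culture, by a difference of -0.60 (adjusted p = 0.00273).

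Serpinb1a encodes an intracellular inhibitor of neutrophil granule proteases. It read 6.027, 6.055 and 6.095 in the 300 culture, 5.337, 5.334 and 5.292 after the 600 challenge and 5.06, 5.013 and 4.887 with cyclosporin A. It read 6.389, 6.404 and 6.338 in the 600 culture, 6.147, 6.106 and 6.126 after the 900 challenge and 5.891, 5.879 and 5.87 with the drug. None of the 6 groups overlapped another, and the order from low to high was the 600 challenge with the drug, the 600 challenge, the 900 challenge with the drug, the 300 culture, the 900 challenge and the 600 culture. It fell by 0.74 ± 0.05 (adjusted p = 9.03e-08) after the 600 challenge and by 0.25 (adjusted p = 0.00161) after the 900 challenge. The 600 culture was higher than the 300 culture by 0.32 (adjusted p = 0.000179) and higher than the 600 challenge by 1.06 (adjusted p = 1e-09). The acute step and the long-term culture at the same osmolality thus lay on opposite sides of the 300 culture.

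Serpinb9, the intracellular inhibitor of granzyme B, read 5.975, 6.076 and 6.142 in the 300 culture, 5.7, 5.85 and 5.751 after the 600 challenge, 5.655, 5.613 and 5.665 in the 600 culture, then 4.979, 4.815 and 4.974 at the 900 challenge. Both challenge groups were below their starting cultures with no overlap. It fell by 0.30 ± 0.07 (adjusted p = 0.0114) and by 0.72 ± 0.07 (adjusted p = 6.43e-06). The former call was lost on leaving out 300 culture replicate 3 (adjusted p = 0.056) or 600 challenge replicate 1 (adjusted p = 0.0538). The 600 culture was below the 300 culture, with a difference of -0.42 (adjusted p = 0.000663). Serpinb9 and Serpinb1a lie either side of Serpinb6b in the RefSeq order.

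The Serpinb6 genes encode intracellular inhibitors of cathepsin G and trypsin-like proteases. Serpinb6a had narrow differences: its means ran from 6.56 to 6.78, and it was called lower by 0.15 after the 600 challenge (adjusted p = 0.0436) and by 0.22 with the drug (adjusted p = 0.00324). Against the 600 culture it was called lower by 0.14 in the 600 challenge and by 0.14 in the 900 challenge with the drug. These 2 calls were lost under 8 and 9 of 13 alternatives. Serpinb6b was lower by 0.29 after the 600 challenge with overlapping groups (adjusted p = 0.0404), by 0.47 with the drug (adjusted p = 0.00174) and by 0.41 in the 600 culture than in the 300 culture (adjusted p = 0.00364). The calls of both genes after the 600 challenge without the drug were lost on leaving out 300 culture replicate 2 or 3 or 600 challenge replicate 1 or 2, and that of Serpinb6a also on leaving out 300 culture replicate 1. That of Serpinb6a was also lost with medians centred (adjusted p = 0.0833) and with quantile normalization (adjusted p = 0.0568). The Serpinb6b call was lost with quantile normalization as well (adjusted p = 0.0604). Serpinb1a, Serpinb6a, Serpinb6b and Serpinb9 have close relatives in the rat genome, and cross-reading of their features was not tested.

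Serpinb5, an epithelial serpin that is not an inhibitor of serine proteases, had its highest means in the 900 challenge groups. It read 2.82, 2.829 and 2.456 in the 600 culture, 3.292, 3.197 and 3.536 after the 900 challenge and 3.421, 3.241 and 2.959 with the drug, against 2.449, 2.158 and 1.763 in the 300 culture and 2.061, 2.287 and 2.691 at the 600 challenge. The 900 challenge did not overlap the 600 culture. The rise at 900 was 0.64 ± 0.20 (adjusted p = 0.0417) and was lost on leaving out any of the 6 arrays (adjusted p from 0.0577 to 0.159). The other 7 clade B genes were called in no comparison. Among them Serpinb8, an inhibitor of furin-like proteases, had means of 2.86 to 3.48, Serpinb3 3.12 to 3.41, Serpinb11 3.01 to 3.20 and Serpinb9d 3.03 to 3.19. Serpinb7 had means of 2.63 to 2.82, and Serpinb12 and Serpinb13 were below the lower quartile in every group.

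**Figure D2:**
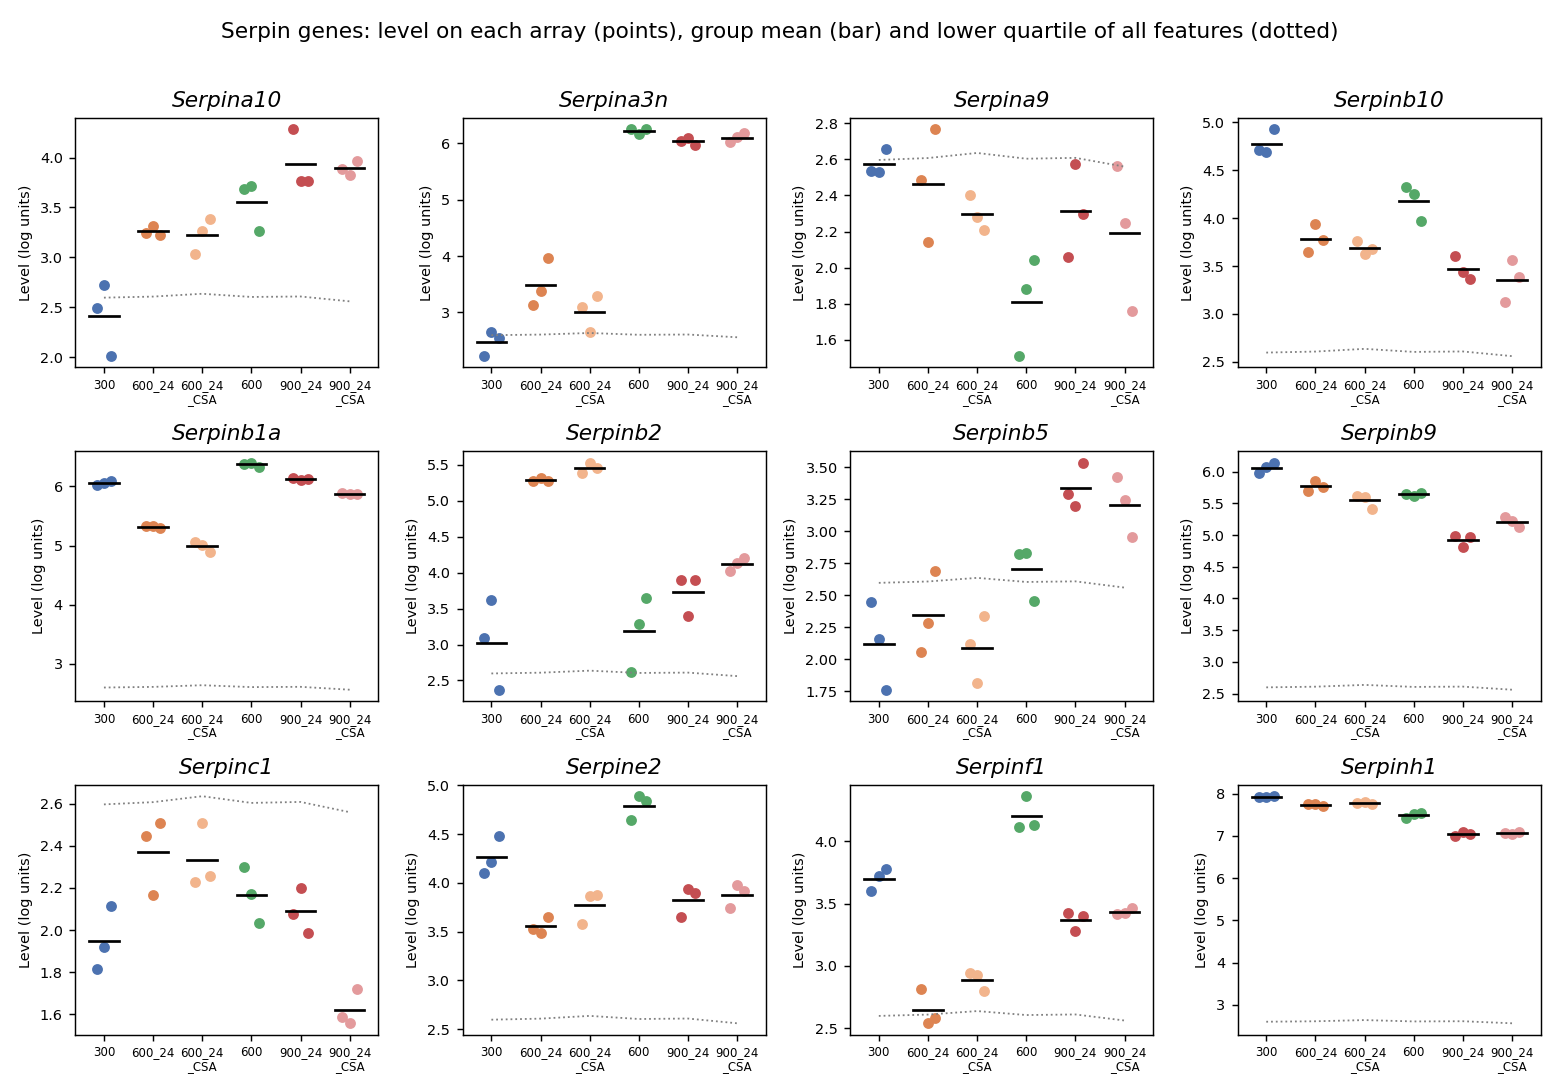
Level in log units on each of the 18 arrays for the serpin genes with a called difference of at least 0.5 and for Serpinh1, with a bar at the group mean and a dotted line at the lower quartile of all features. On the axis, 300 and 600 are the cultures, 600_24 and 900_24 the challenges, and CSA marks cyclosporin A. Each panel has its own vertical range, and levels of different genes are not comparable. Serpinb2 stands out at 5.28 to 5.53 in both 600 challenge groups, and Serpina3n at 5.97 to 6.25 in the 3 groups from the 600 culture.

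Serpinb1a, Serpinb9 and Serpinb10 are also expressed by leukocytes, and leukocyte markers moved with the groups. Of all features, 8.07% fell after the 600 challenge and 11% after the 900 challenge. In the 600 culture 8.84% were lower than in the 300 culture. Of 13 leukocyte markers, 11 fell after each challenge without the drug and 12 were lower in the 600 than in the 300 culture. Their summed level was 72.1 to 73.3 in the 300 culture, 54.9 to 56.4 in the 600 challenge, 52.6 to 55.5 with the drug, 57.1 to 58.3 in the 600 culture, 42.5 to 43.3 in the 900 challenge and 43.3 to 43.4 with the drug. Over the 4 groups without the drug, Serpinb10 had the same order of means as this sum. Serpinb9 departed from it in the 600 challenge and 600 culture, whose difference of 0.12 was not called, and Serpinb1a had another order. At the 900 challenge the Serpinb10 mean was 3.36 with the drug and 3.47 without it, not called, while the sum was not lower with the drug. The part of the leukocyte markers in the results of these genes was not tested.

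Serpine2, the 1 gene of clade E, and Serpinf1, the 1 called gene of 2 in clade F, were lower after each challenge. Both were higher in the 600 than in the 300 culture. Serpinb1a of clade B went the same way in these comparisons. Serpine2, a secreted inhibitor of thrombin, urokinase and plasmin, read 4.097, 4.211 and 4.477 in the 300 culture, then 3.529, 3.488 and 3.649 at the 600 challenge. It read 4.648, 4.889 and 4.838 in the 600 culture, then 3.646, 3.939 and 3.892 at the 900 challenge. With the drug it read 3.583, 3.869 and 3.88 at 600 and 3.739, 3.978 and 3.918 at 900. No challenge group overlapped its starting culture. It fell by 0.71 ± 0.12 (adjusted p = 0.000656) at the 600 step and by 0.97 ± 0.12 (adjusted p = 3.42e-05) at the 900 step. The 600 culture exceeded the 300 culture by 0.53 (adjusted p = 0.00458) and the 600 challenge by 1.24 (adjusted p = 2.21e-06). With the drug the decreases were -0.48 (adjusted p = 0.0109) and -0.91 (adjusted p = 5.45e-05), and the former call was lost on leaving out 300 culture replicate 3 (adjusted p = 0.0574) or replicate 1 of the drug group (adjusted p = 0.0586).

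Serpinf1, a secreted anti-angiogenic factor, read 3.599, 3.719 and 3.782 in the 300 culture, 2.814, 2.538 and 2.583 after the 600 challenge and 2.946, 2.925 and 2.796 with the drug. It read 4.12, 4.364 and 4.135 in the 600 culture, 3.422, 3.282 and 3.398 after the 900 challenge and 3.42, 3.424 and 3.462 with the drug. Each challenge group was below its starting culture, and the 600 culture above the 300 culture, with no overlap. It fell by 1.05 ± 0.08 (adjusted p = 7.27e-07; 2.08-fold in base 2 or 2.87-fold in natural logs) and by 0.84 (adjusted p = 6.42e-06). The 600 challenge mean, 2.645, was just above the lower quartile of 2.608, and replicates 2 and 3 were below that of their arrays (2.596 and 2.653). The folds against this group, here and in the next sentence, thus rest on a level near background. The 600 culture was higher than the 300 culture by 0.51 (adjusted p = 0.000482) and higher than the 600 challenge by 1.56 (adjusted p = 5.81e-09; 2.95-fold or 4.77-fold). Its neighbour Serpinf2, the plasmin inhibitor of plasma, had means of 1.99 to 2.35, below the lower quartile in every group, and was not called.

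Serpinh1, the endoplasmic reticulum chaperone of procollagen, was lower in each step towards higher osmolality. It read 7.913, 7.926 and 7.941 in the 300 culture, 7.758, 7.753 and 7.699 after the 600 challenge, 7.435, 7.525 and 7.547 in the 600 culture, then 6.998, 7.103 and 7.057 at the 900 challenge. These 4 groups did not overlap. The differences were -0.19 ± 0.04 (adjusted p = 0.00955) for the 600 challenge, -0.42 (adjusted p = 6.45e-06) for the 600 culture, both against the 300 culture, and -0.45 (adjusted p = 6.33e-06) for the 900 challenge against the 600 culture. With the drug the 600 difference was -0.15 (adjusted p = 0.038), a call lost on leaving out any of the 6 arrays (adjusted p from 0.0514 to 0.114) and under both other scalings (adjusted p = 0.0905 and 0.159).

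Serpinh1, Serpine2 and Serpinf1 are also expressed by mesenchymal cells. Of 12 fibroblast and smooth muscle markers, 9 fell after the 600 challenge, beside 8.07% of all features. After the 900 challenge 10 of these markers fell, beside 11%. In the 600 culture 7 of these markers were lower than in the 300 culture, beside 8.84%. Their summed level was 72.2 to 72.9 in the 300 culture, 61.3 to 62.2 in the 600 challenge, 62.6 to 63.7 with the drug, 68.3 to 68.5 in the 600 culture, 58.4 to 60.0 in the 900 challenge and 57.5 to 58.3 with the drug. Of 9 endothelial markers, 1 rose and 6 fell after the 600 challenge, beside 14.4% of all features called. After the 900 challenge 1 rose and 3 fell, beside 17.4%. In the 600 culture 4 of the 9 markers were higher and 2 lower than in the 300 culture, beside 17.2%. Their summed level was 43.7 to 43.9 in the 300 culture, 40.4 to 41.3 in the 600 challenge, 39.6 to 40.2 with the drug, 45.6 to 47.4 in the 600 culture, 44.9 to 45.6 in the 900 challenge and 45.8 to 46.0 with the drug. The part of either list in these results was not tested.

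**Figure D3:**
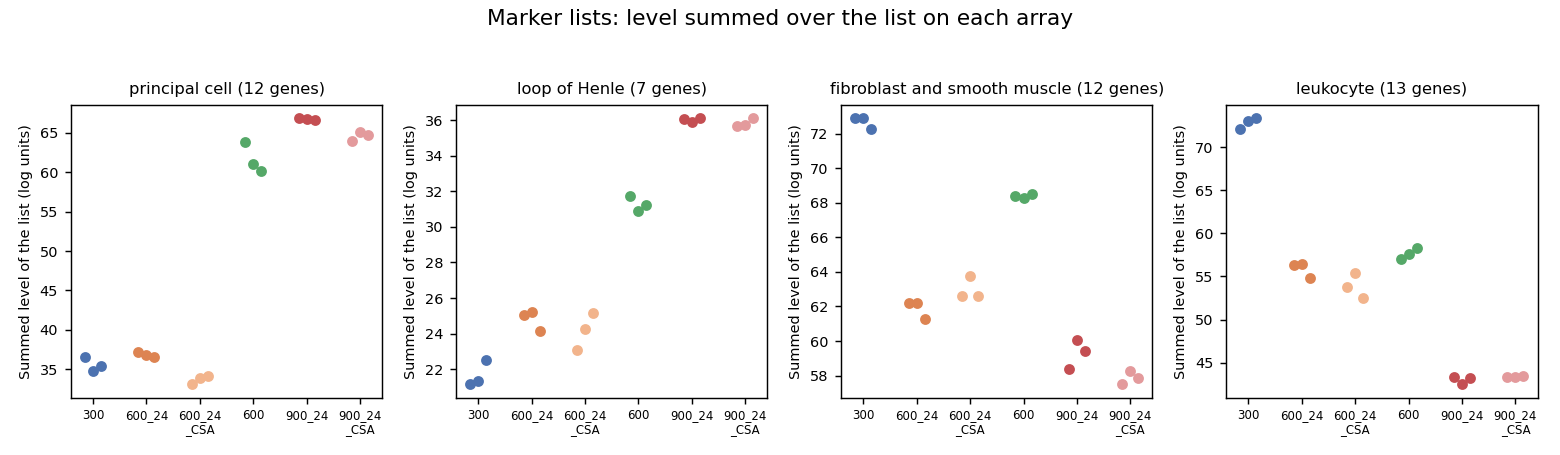
Level in log units summed over each marker list on every array, by group, in panels for principal cells (12 genes), loop of Henle (7), fibroblasts and smooth muscle (12) and leukocytes (13). The principal cell sum is 60.1 or more in the 3 groups from the 600 culture and 37.2 or less in the others, and the leukocyte sum is highest in the 300 culture.

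In clades C, D, G and I, 2 of 5 genes were called in any comparison, again with no share of all features taken. Serpinc1, antithrombin, was below the lower quartile in every group: it read 1.815, 1.92 and 2.113 in the 300 culture, 2.447, 2.165 and 2.508 after the 600 challenge and 1.585, 1.557 and 1.721 after the 900 challenge with the drug. It was called higher by 0.42 ± 0.11 (adjusted p = 0.0179) after the 600 challenge, a call lost on leaving out 300 culture replicate 1 or 2 or 600 challenge replicate 1 or 3 (adjusted p from 0.0576 to 0.0852). After the 600 challenge with the drug it read 2.227, 2.507 and 2.259. There it was called higher than in the 300 culture by 0.38, a call lost under 8 of 12 alternatives. In the 600 culture it read 2.301, 2.171 and 2.032. It was called lower by 0.55 (adjusted p = 0.00272) in the 900 challenge with the drug than in the 600 culture. Serpind1, a second thrombin inhibitor of plasma, had means of 1.88 to 2.19 and was not called. Serping1, the inhibitor of the first complement component, lay between 4.58 and 5.03 and was not called. Serpini1, a neuronal inhibitor of tissue plasminogen activator, had a mean of 3.83 in the 300 culture and 4.23 in the 600 culture, a difference of 0.40 ± 0.10 (adjusted p = 0.011), lost on leaving out 300 culture replicate 2 (adjusted p = 0.0567) or 600 culture replicate 1 (adjusted p = 0.0596). Serpini2 had means of 2.94 to 3.19 and was not called.

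With cyclosporin A, 1 serpin gene was called lower at each challenge, Serpinb1a (1 of 36, 2.78%, against 0.409% of all features called at 600, 0.229% up and 0.180% down, and 0.505% at 900, 0.357% up and 0.148% down). From the values already given, all drug arrays were below all arrays of the matching challenge. It fell by 0.33 ± 0.05 (SE; 95% interval of the difference -0.44 to -0.23; adjusted p = 0.00571) at the 600 challenge, which is 1.26-fold in base 2 or 1.4-fold in natural logs. At the 900 challenge it fell by 0.25 ± 0.05 (interval -0.35 to -0.15; adjusted p = 0.0356). The latter call was lost on leaving out any of the 6 arrays (adjusted p from 0.0828 to 0.129). It was also lost with medians centred (adjusted p = 0.0772) and with the replicate number as a block (adjusted p = 0.0537). Both calls were lost with only the groups compared in the fit (adjusted p = 0.373 at 600 and 0.335 at 900). The same held for the 2-sample test of each feature alone (adjusted p = 0.353 and 0.129). The effect at 900 minus that at 600 was 0.09 (interval -0.06 to 0.23; adjusted p = 0.824), so the test did not separate them.

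Serpinb9 was at 5.619, 5.604 and 5.412 with the drug at the 600 challenge and at 5.29, 5.216 and 5.121 with the drug at the 900 challenge. The drug arrays were below the others at 600 and above them at 900, without overlap. The differences were -0.22 (adjusted p = 0.307) and 0.29 (adjusted p = 0.116), and the drug effect at 900 minus that at 600 was 0.51 ± 0.10 (unadjusted p = 2e-04; adjusted p = 0.145), which did not pass. For Serpinb2 the drug differences were 0.17 (interval -0.41 to 0.75) and 0.39 (interval -0.20 to 0.97), so the arrays do not exclude sizeable effects in either direction at 600. Over the 36 genes, 6 at 600 and 5 at 900 had an unadjusted p under 0.05, counting Serpinb1a. No serpin gene passed for the difference between the drug effects (0 of 36, beside 0.0459% of all features, 0.0388% up and 0.00706% down; 4 at an unadjusted p under 0.05), and 1, Serpinb9, passed with limma's trended and robust variance.

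**Figure D4:**
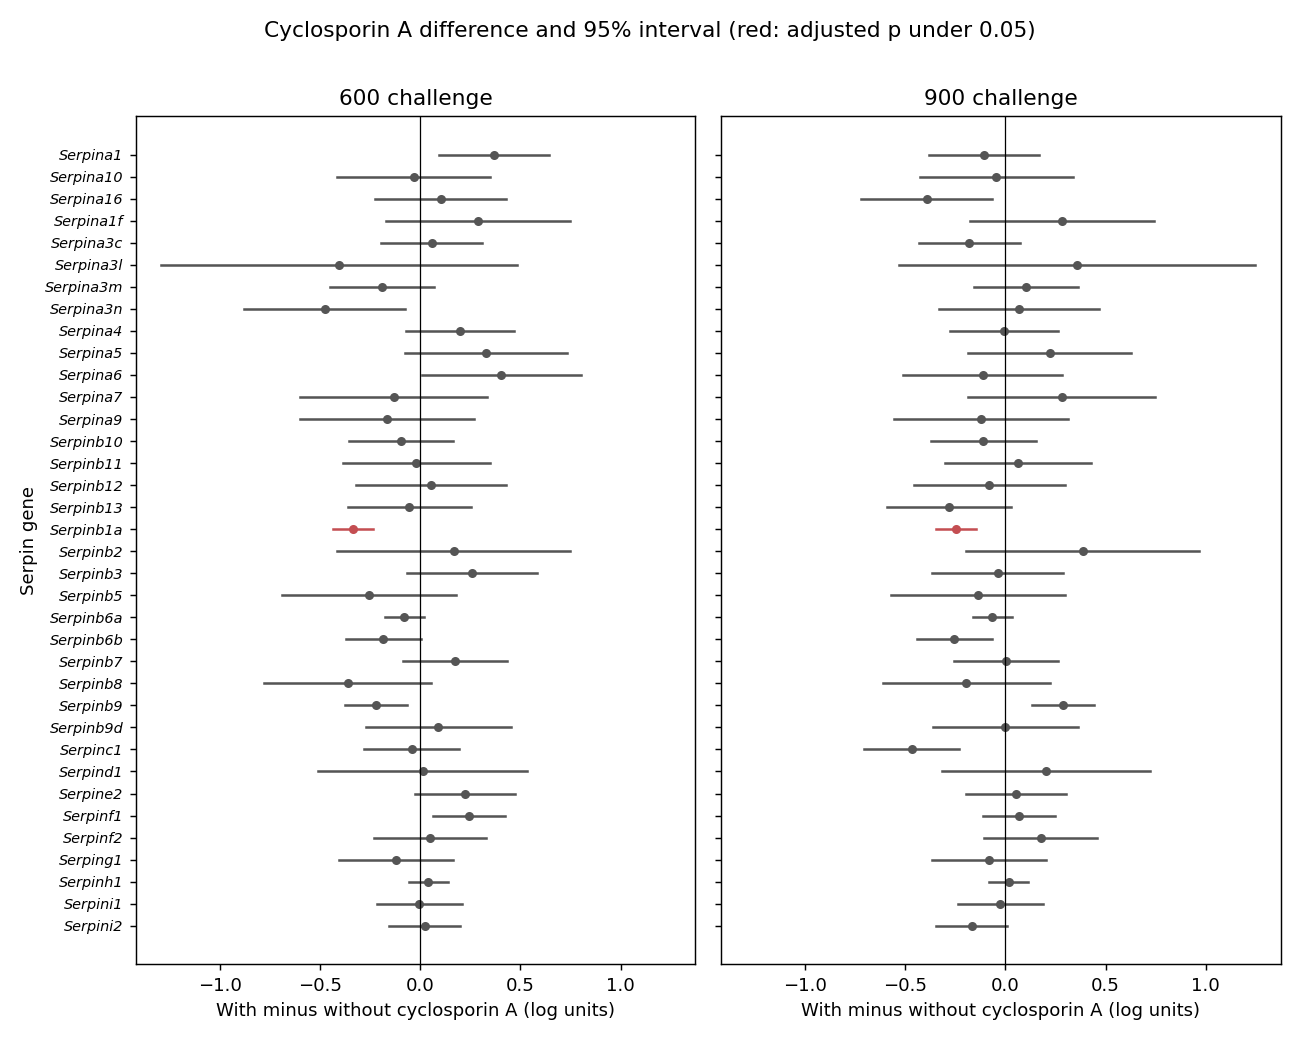
Difference in log units between each challenge with and without 5 µM cyclosporin A for all serpin genes, at 600 and at 900 mosmol/kg, with 95% intervals. Serpinb1a is the gene called at both (-0.33 and -0.25), and Serpinb9 lies below 0 at 600 (-0.22) and above 0 at 900 (0.29), neither called.

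The difference between the 900 step and the 600 step uses each array of the groups without the drug once. It was called for 5 of 36 genes (13.9%, against 7.58% of all features), 1 upward and 4 downward (3.52% and 4.06% of all features). Serpinb1a fell less at the 900 step, with a difference of 0.49 ± 0.07 (adjusted p = 0.000421). Serpina3n and Serpinb2 had a smaller value at the 900 step (-1.20 and -1.72), and Serpinb9 and Serpinh1 fell further at it (-0.42 and -0.26). The calls of Serpinb2, Serpinb9 and Serpinh1 were lost under 1, 3 and 8 of 18 alternatives.

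The proteases that serpins meet were read from lists of genes, and the counts of all 5 lists stand beside 14.4% of all features called after the 600 challenge and 17.4% after the 900 challenge. Of 21 plasminogen activation and coagulation genes, 3 rose and 3 fell after the 600 challenge, and 3 rose and 4 fell after the 900 challenge, with list medians of -0.07 and -0.09. Plau, urokinase itself, rose by 0.16 ± 0.04 (adjusted p = 0.0263) at the 600 step and by 0.68 ± 0.04 (adjusted p = 1.1e-07) at the 900 step. Its receptor Plaur was lower by 0.40 after the 600 challenge (adjusted p = 0.00364). F3, tissue factor, was lower by 0.54 (adjusted p = 0.000725) and 1.89 (adjusted p = 4.84e-09). Thbd, thrombomodulin, was lower by 1.01 (adjusted p = 2.23e-05) and 1.05 (adjusted p = 1.2e-05). Serpinb2 and Serpine2, both inhibitors of urokinase, thus moved in opposite directions at the 600 step, where Plau rose slightly.

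Among 10 measured genes of serpin clearance and cofactors, 0 rose and 4 fell after the 600 challenge, and 1 rose and 3 fell after the 900 challenge (medians -0.25 and -0.06). The clearance receptor Vldlr was lower by 0.97 (adjusted p = 1.68e-08) and 0.30 (adjusted p = 0.000764). Of 14 membrane-anchored serine proteases and Kunitz or Kazal inhibitors, 3 rose and 3 fell at 600, and 5 rose and 4 fell at 900 (medians 0.07 and 0.01). The epithelial protease Tmprss2 was higher by 1.20 (adjusted p = 8.04e-06) and 0.71 (adjusted p = 0.000733).

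Of 20 cysteine and granule proteases with their other inhibitors, 0 rose and 10 fell after the 600 challenge, and 2 rose and 8 fell after the 900 challenge (medians -0.28 and -0.17). Ctss, a cathepsin abundant in leukocytes, fell by 1.20 (adjusted p = 7.77e-07) and 1.04 (adjusted p = 3.05e-06). Slpi, a non-serpin inhibitor of neutrophil elastase, fell by 1.07 (adjusted p = 0.00113) at the 600 step, and was 2.30 lower in the 600 than in the 300 culture (adjusted p = 4.23e-07). Of the 22 collagen folding and processing partners of Serpinh1, 1 rose and 15 fell after the 600 challenge, and 1 rose and 10 fell after the 900 challenge (medians -0.36 and -0.26). Col1a1 fell by 1.01 (adjusted p = 2.52e-07) and 0.87 (adjusted p = 1.12e-06), and P3h2, a prolyl hydroxylase of collagen, rose by 1.17 (adjusted p = 2.09e-08) and 0.60 (adjusted p = 1.11e-05). Several genes of this list, Col1a1 among them, are also in the fibroblast list. In the drug comparisons these 5 lists had 1 call, P4hb at 600 (0.21, adjusted p = 0.0488).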

How the data were processed

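RNA was purified on Qiagen RNeasy columns and biotin-labelled with Affymetrix whole-transcript reagents, per the labels' protocols. The authors deposited log-scale values, whose base, summarisation and normalization are not given in the sources used here, so they are treated as values of unknown log base although the tests had been planned for log2 values. A change of base rescales differences and leaves p-values as they are. Groups were taken from the sample titles. Of 28328 features, 15295 had 1 gene symbol, 322 several and 12711 none in the platform's probe gene table. Each of the 36 genes had 1 feature, and all 36 matched the GRCr8 gene table by Entrez number with 0 symbols changed.

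In R 4.3.3, limma 3.58.1 fitted 6 group means to 18 arrays (12 residual and 2.03 prior degrees of freedom), with lmFit and eBayes and Benjamini-Hochberg adjustment over all features. Genes called with a difference of at least 0.5 log units in any of the 8 comparisons are given array by array in the groups compared, and the others by means or ranges. The fit was tested on simulated data. No 2 arrays held identical values. The genes and lists were chosen with earlier results of these data known. Alternatives covered scaling, dim features, variance model, replicate number, samples fitted and single arrays left out. Array values carry no read depth, so the number of arrays limits the precision.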

Additional observations from a re-analysis of the deposited data

Results flagged for a closer look

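For 5 serpin genes the change after the 900 challenge differed from the change after the 600 challenge. Each change was taken against the starting culture, and limma tested the difference itself. Serpina3n differed by -1.20 ± 0.26 (SE; adjusted p = 0.0121). Serpinb1a differed by 0.49 ± 0.07 (adjusted p = 0.000421). Serpinb2 differed by -1.72 ± 0.38 (adjusted p = 0.0134), a call lost with only the groups compared in the fit (adjusted p = 0.0536). Serpinb9 differed by -0.42 ± 0.10 (adjusted p = 0.0205), a call lost on leaving out 300 culture replicate 1, 600 challenge replicate 2 or 900 challenge replicate 2 (adjusted p from 0.0515 to 0.0576). Serpinh1 differed by -0.26 ± 0.06 (adjusted p = 0.0222), a call lost with medians centred (adjusted p = 0.0551), with only the groups compared (adjusted p = 0.0625) and on leaving out 300 culture replicate 1, 600 culture replicate 2 or 3, 600 challenge replicate 1 or 2, or 900 challenge replicate 1 (adjusted p from 0.0506 to 0.0584).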

How the results depend on the processing

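Of the 66 called differences, none reversed under any alternative, 33 were called under all of them, and 42 under all but the 2-sample test of each feature alone. Centring on medians kept 60 and quantile normalization 61, and no scaling moved the median of all features by more than 0.0434 log units. Leaving out dim features kept all 61 that it left in, and trended and robust variance kept 64.

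With only the groups compared in the fit, the calls went from 12 to 7 after the 600 challenge, from 11 to 6 with the drug, from 1 to 0 for each drug comparison and from 5 to 3 for the difference between steps. With the 2-sample test they went to 6 after the 600 challenge, to 0 for each drug comparison and from 11 to 4 for the 600 against the 300 culture. The drug count at 900 was 0 with medians centred and 2 with trended and robust variance, and the latter gave 1 for the difference between drug effects in place of 0. The cause of these changes was not tested, beyond the smaller number of arrays in the first 2 settings.

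Leaving out 1 array gave 8 to 12 calls after the 600 challenge, 9 to 12 with the drug, 6 in each case after the 900 challenge, 7 to 8 with the drug, 1 in each case for the drug at 600, 0 in each case for the drug at 900, 9 to 12 for the 600 against the 300 culture, 6 to 9 for the 600 challenge against the 600 culture, 0 in each case for the difference between drug effects and 3 to 6 for that between steps (3 without 300 culture replicate 1).

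The replicate numbers did not pair the arrays: deviations of same-numbered arrays correlated between -0.129 and 0.108 (median 0.00851 over 45 pairs), and 5 of 18 arrays correlated best with their own number. With the replicate number as a block, 58 of 66 differences were called, and the drug count at 900 went from 1 to 0. The numbers are those of the sample titles, and the source names number the third array of both 900 challenge groups differently. The mean of several features per gene was not run, since each gene had 1.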

Other observations

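Serpina9, Serpina11 and Serpina12 also appear on 2 features that carry a pair of symbols each and were left out of the 36 genes. The feature for Serpina11 and Serpina9 had group means between 2.14 and 2.59, and the feature for Serpina9 and Serpina12 between 2.42 and 2.80. Each was called in 1 of 10 comparisons.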
